A study of Mus musculus with 20 samples.

Results

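Respiratory complex I, the NADH:ubiquinone oxidoreductase of the inner mitochondrial membrane, was examined through the array probes for its nuclear-encoded subunits and assembly factors. The probes were those annotated to a gene whose symbol begins with Ndufa, Ndufb, Ndufc, Ndufs, Ndufv or Ndufaf and that were above background (detection p under 0.05) on at least 4 of 8 muscle arrays or 6 of 12 brain arrays. They numbered 50 probes of 39 genes, out of 53 such probes of 40 genes on the array and 25697 probes in all. The 3 probes left out, 1 for Ndufs1 and 2 for Ndufaf7, did not reach that detection in either tissue. 1 of the 50 is annotated to Ndufs5-ps, a pseudogene of Ndufs5, and is reported under that name. Of the 50, 50 were tested in muscle and 48 in brain.

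RNA came from mice heterozygous for a transgene of mutant human TDP-43 and from wt mice, whose genotype entry in the labels reads heterozygote wt. All were 17 weeks old on a C57BL/6J background. There were 4 mutant and 4 wt muscles and 6 mutant and 6 wt brains, each from its own mouse, so that tissue and set of mice cannot be told apart. The promoter of the transgene, the muscle taken and the brain regions included are not given in the sources used here. TDP-43, the product of the Tardbp gene, binds RNA and forms aggregates in motor neurons in amyotrophic lateral sclerosis. The study's title concerns fatty acid metabolism in this model.

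Complex I takes electrons from NADH, passes them along iron-sulphur clusters to ubiquinone and pumps protons across the membrane. It is L-shaped. The N module at the tip of the matrix arm oxidises NADH, the Q module below it reduces ubiquinone, and the membrane arm, with a proximal and a distal part, pumps protons. Its hydrophobic core subunits are encoded in mitochondrial DNA and are not analysed here; all subunits described are nuclear. Assembly factors help to build the complex and are absent from the finished enzyme. Ndufa4 carries a complex I name but is now counted as a subunit of cytochrome oxidase. It was kept as a class of its own but is included in the totals over all complex I probes.

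Tissue labels were checked against markers. All 6 skeletal muscle markers were above background in muscle, but Pvalb and Acta1 were so in all 12 brains too. Acta1 averaged 6.25 in mutant and 6.23 in wt brains, and Pvalb 12.4 and 12.26. Of 4 neuronal markers, Stmn2 and Syt1 were above background in all 12 brains, while the probes for Snap25 and Nefl were above it in 0 of 12. The 4 averaged 7.46 to 7.67 on the log2 scale in mutant brains and 7.49 to 7.63 in wt brains. Stmn2 was also above background in all 8 muscles, with means of 5.56 in mutants and 5.50 in wt mice, against 11.17 and 11.09 in brain. The arrays detected 11469 to 12446 probes in muscle and 11736 to 12966 in brain. On the first principal component muscle wt 2 and brain mutant 2, wt 2 and wt 4 stood apart. Although the series describes male mice, the Y-linked gene Eif2s3y was above background in 3 of 6 mutant and 3 of 6 wt brains, and in all 8 muscles. The level of 11 pancreatic acinar genes was 4.88 to 5.02 in mutant muscles and 6.01 to 6.81 in wt muscles. The brightest probe for mouse Tardbp differed by -0.94 in muscle (limma adjusted p = 0.00511) and by -0.57 in brain (limma adjusted p = 0.150).

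In the brain, transcripts of complex I lay slightly below wt in the mutants, but no single probe passed the test. Of 48 probes, 37 (77.1%) had a lower mean in mutant than in wt brains, against 49.5% of all 12423 brain probes tested. The median log2 difference, mutant minus wt, was -0.11 over the complex I probes and 0.0025 over all probes. None was called by limma at an adjusted p under 0.05, where 0.00805% of all brain probes were. At an unadjusted p under 0.05, 10 probes were lower and 0 higher, against 4.53% of all probes lower and 2.49% higher. Several of the 10 read the same gene. By the brightest probe of each gene, 28 of 38 genes (73.7%) were below wt, with a median of -0.077, against 48.2% of all 8956 genes. Of the 38, 5 were lower and 0 higher at an unadjusted p under 0.05, against 371 lower and 239 higher of the 8956. In 0 of 48 did all mutant mice lie below all wt mice (0.386% of all probes did). That complex I tends below wt in these brains was known when the probes were chosen, so the counts describe the samples and are not independent support. Bulk tissue was measured, and fewer cells of a type cannot be told apart from less RNA per cell.

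Averaged over the 48 probes, the level per mouse was 8.79, 8.86 and 8.96 (lowest, median and highest) in mutant brains, against 8.91, 8.96 and 9.05 in wt brains. 5 of 6 mutants lay below every wt mouse, and mutant 2, the highest mutant, lay within the wt range. In muscle the same average was 10.45 to 10.58 in mutants and 10.50 to 10.58 in wt mice, and the groups overlapped.

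**Figure D1:**
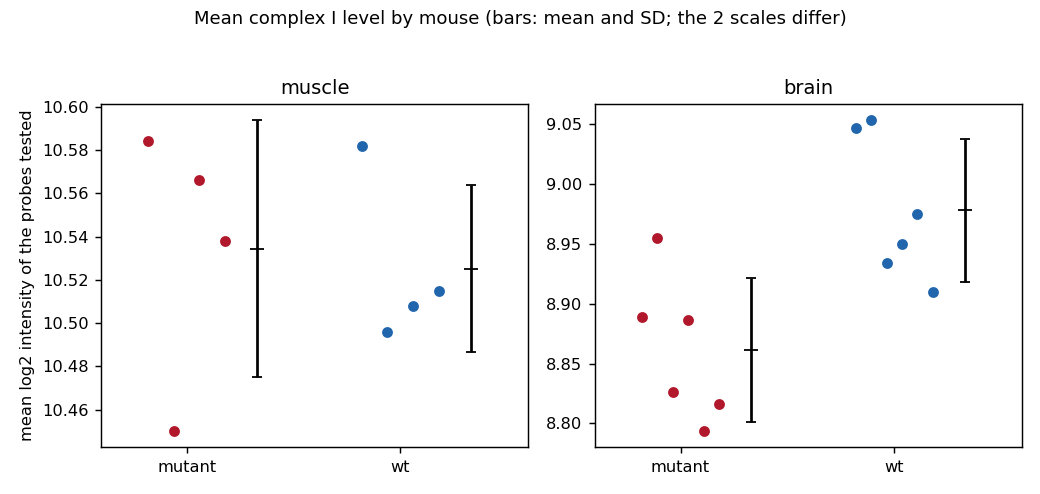
Mean log2 normalized intensity of the complex I probes in each mouse, for muscle (50 probes, left) and brain (48 probes, right), each mutant before wt. Dots are mice, bars are the mean and SD, and the 2 vertical scales differ; brain mutants span 8.79 to 8.96 and brain wt mice 8.91 to 9.05.

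The distal membrane arm showed the most even direction in brain. All 11 of its tested probes (10 genes) were below wt, with differences between -0.43 and -0.053 and a median of -0.154, and 2 of them had an unadjusted p under 0.05. In the N module 9 of 14 probes were below wt (median -0.056, 4 with unadjusted p under 0.05), in the Q module 5 of 6 (median -0.072, 1 probe), in the proximal arm 6 of 10 (median -0.092, 3 probes) and among the assembly factors 5 of 6 (median -0.11, 0 probes). Ndufa4 differed by -0.087. Of all brain probes, 49.5% were below wt and 4.53% were lower at an unadjusted p under 0.05. By the brightest probe of each gene, 5 of 9 N module genes were below wt and 1 had an unadjusted p under 0.05. The distal arm probes were mostly dim: by wt brain level on jointly normalized values, 9 of 11 lay in the dimmer part of the complex I probes. Of the 24 dimmer complex I probes of any part, by level in brain, 22 were below wt. Whether the classes differ from each other, or by signal strength alone, was not tested.

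**Figure D2:**
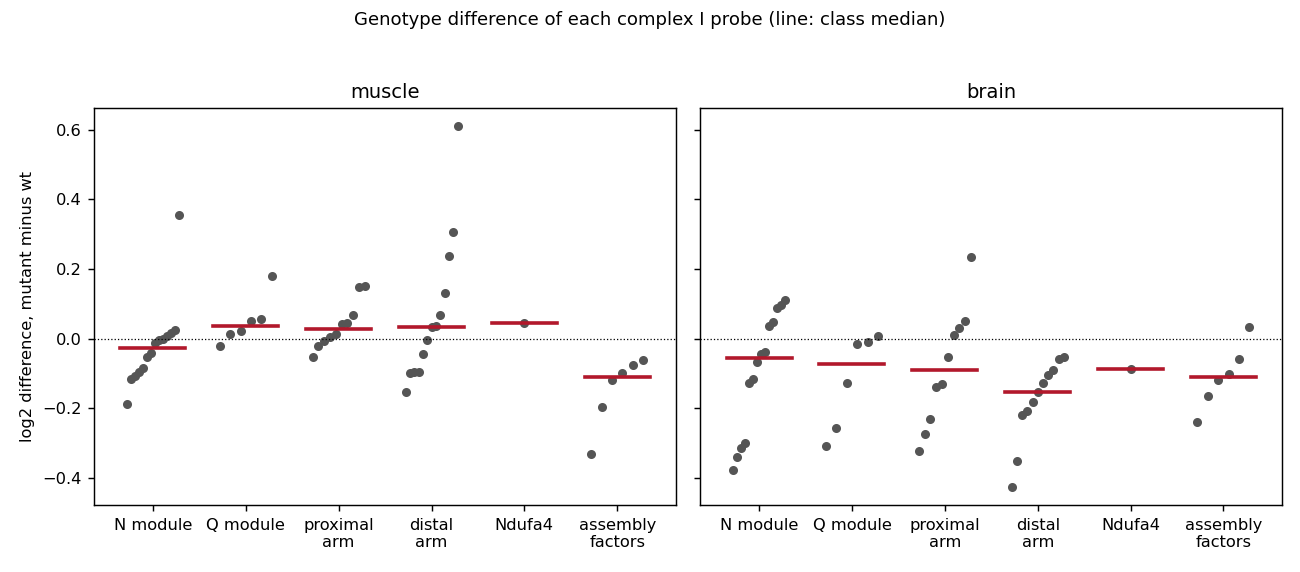
Log2 difference, mutant minus wt, of each complex I probe in muscle (left) and brain (right), by part of the complex; red lines are class medians. In brain the 11 distal arm probes lie below 0 and class medians run from -0.154 to -0.056. In muscle the medians of the N module, Q module and membrane arm classes lie between -0.027 and 0.035. Ndufa4 lies at 0.045 and the median of the assembly factors at -0.11.

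Ndufb2 and Ndufb5, small subunits of the distal arm, showed the widest brain differences within that arm. Ndufb5 had levels of 6.18, 6.64 and 6.82 (lowest, median and highest) in mutant brains, against 6.67, 7.01 and 7.13 in wt brains. Of the 6 mutants, 4 lay below the lowest wt mouse. The difference was -0.35 (SE 0.12, 78.4% of wt, unadjusted p = 0.00998, limma adjusted p = 0.563).

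Ndufb2 had levels of 4.98, 5.40 and 6.09 in mutant brains, against 5.49, 5.80 and 6.16 in wt brains. Its mutants spread over more than 1 log2 unit and the highest reached the upper wt range. The difference was -0.43 (SE 0.17, limma adjusted p = 0.653), the most negative of the 48 in this processing and in 17 of 25 alternatives. Without background correction it was -0.134 and ranked 12, and Ndufs4 probe ILMN_2900025 was the most negative. The other distal arm genes had smaller differences: Ndufb9 -0.21, Ndufb6 -0.18 and -0.22 by its 2 probes, Ndufb7 -0.15, Ndufb4 -0.13, Ndufb3 -0.10, Ndufb11 -0.092, Ndufb8 -0.060 and Ndufb10 -0.053.

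In the N module, Ndufa6 and Ndufs4 carried all the probes with an unadjusted p under 0.05. Ndufa6, a LYR-motif protein that holds an acyl carrier protein at the matrix arm, had levels of 10.08, 10.33 and 10.46 in mutant brains, against 10.42, 10.62 and 10.81 in wt brains. Only the top of the mutant range reached the bottom of the wt range. The difference was -0.31 (SE 0.097, 80.4% of wt, unadjusted p = 0.00604, limma adjusted p = 0.535), the lowest p of any gene's brightest probe.

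Ndufs4, an accessory subunit that stabilises the N module and whose loss in mice causes a Leigh-like encephalopathy, is read by 4 probes of the same annotated transcript. Probe ILMN_2900025 had levels of 8.14, 8.35 and 8.62 in mutant brains, against 8.40, 8.77 and 8.99 in wt brains. Its difference was -0.38 (SE 0.11, unadjusted p = 0.0040, limma adjusted p = 0.502), and ILMN_2663694 and ILMN_2640944 gave -0.34 and -0.30. The brightest probe, ILMN_1234521, gave -0.12 (unadjusted p = 0.159), so that the 4 probes shared a direction and differed in size.

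The other N module subunits stayed close to wt in brain. Ndufv1, which binds the flavin that accepts electrons from NADH, differed by 0.035, and its iron-sulphur partner Ndufv2 by -0.040. Ndufs6, a zinc-binding subunit, differed by 0.11, Ndufa2 by 0.047, Ndufa7 by -0.046 and Ndufa12 by -0.067. The 3 probes of Ndufv3 gave 0.098, 0.089 and -0.13. The 95% intervals of these subunits all included 0, as that of Ndufs6 did (-0.057 to 0.28).

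In the Q module, Ndufs3, a core subunit of the matrix arm, had levels of 9.17, 9.36 and 9.46 in mutant brains, against 9.31, 9.66 and 9.97 in wt brains. One wt mouse lay among the mutants. The difference was -0.31 (SE 0.10, 80.7% of wt, limma adjusted p = 0.565). Ndufs7 and Ndufs8, which carry the clusters that hand electrons to ubiquinone, differed by -0.13 and -0.016, and Ndufa9 by 0.0068. Ndufa5 gave -0.011 by its brightest probe and -0.26 by its dimmer one.

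In the proximal arm the lowest p of all members was at Ndufa8, a cysteine-rich subunit of the intermembrane space side. Its probe ILMN_2682019 had levels of 8.92, 9.06 and 9.12 in mutant brains, against 9.11, 9.40 and 9.52 in wt brains. The ranges met only at their ends. The difference was -0.32 (SE 0.093, 79.9% of wt, unadjusted p = 0.0038, limma adjusted p = 0.502).

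The brighter Ndufa8 probe, ILMN_2880067, differed by -0.053. Ndufa1, a short membrane subunit needed for assembly, differed by -0.27 (limma adjusted p = 0.675) and Ndufc1 by -0.23 and 0.030 on its 2 probes. Ndufa13, also known as Grim-19, differed by -0.14, and Ndufc2 by -0.13. Ndufa10, a subunit related to nucleoside kinases, differed by 0.23 (SE 0.17), the most positive value of the 48 (-0.041 under median scaling), and Ndufs5-ps by 0.050.

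**Figure D3:**
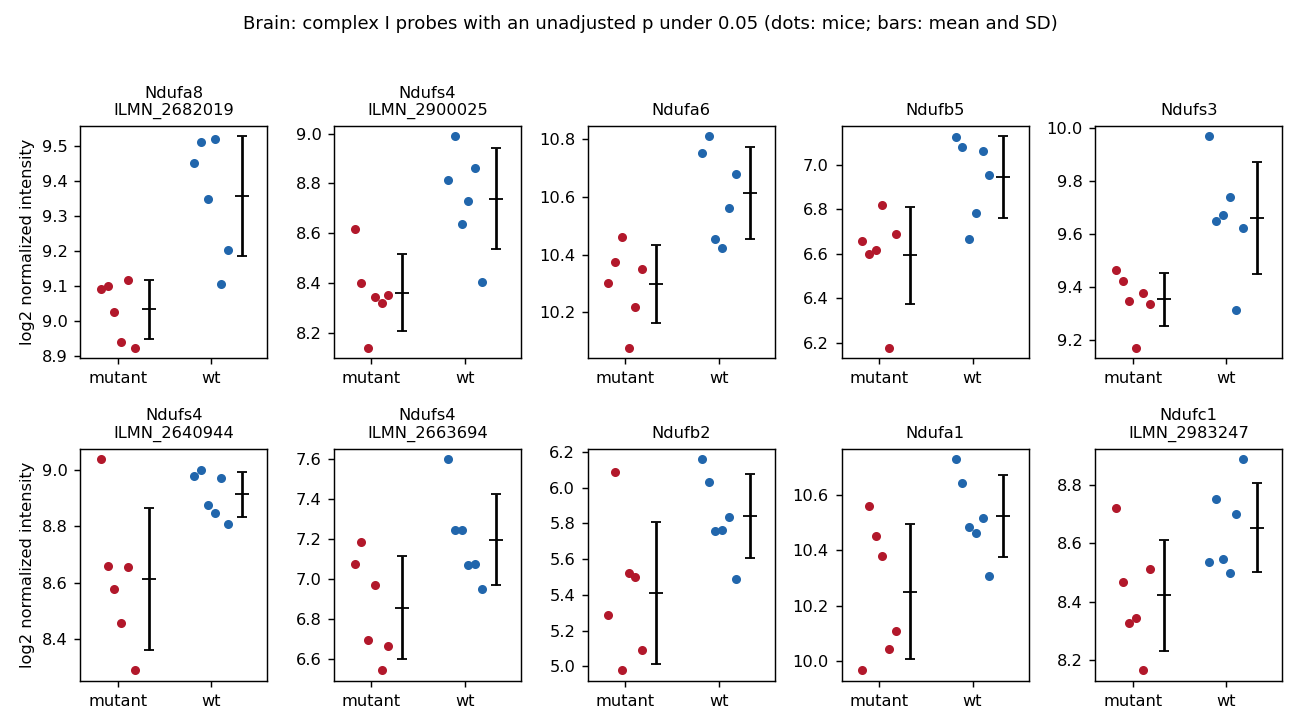
Log2 normalized intensity in each brain for the 10 complex I probes with an unadjusted p under 0.05, mutants left and wt right in each panel; dots are mice, bars the mean and SD. All 10 have a lower mutant mean, the ranges of the groups overlap in each, and Ndufa8 comes closest to separation, with the highest mutant at 9.12 and the lowest wt mouse at 9.11.

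Among the assembly factors, Ndufaf1, part of the complex that assembles the membrane arm, differed by -0.17 in brain (limma adjusted p = 0.775). Ndufaf3 and Ndufaf4, which act together on the Q module, differed by -0.10 and 0.033. Ndufaf5, which in human cells hydroxylates NDUFS7, gave -0.24 and -0.058 by its 2 probes, and Ndufaf7, a methyltransferase, gave -0.12. Of 18 brain probes for other assembly factors such as Acad9, Ecsit and Tmem126b, 11 were below wt (median -0.021). Among them 1 had an unadjusted p under 0.05 in that direction, against 4.53% of all brain probes.

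The genes read by several probes did not give one value in brain. Of 10 comparisons of a dimmer probe with the brightest probe of its gene, all 10 had the more negative difference at the dimmer probe (median of dimmer minus brightest, -0.23). Over all genes with several probes, 56.9% of 2771 such comparisons went that way, with a median of -0.031. Of the 24 dimmer complex I probes, by level in brain, 22 were below wt (median -0.19), and of the 24 brighter ones 15 (median -0.043). All probes on the same sides of that level (10.05) had medians of 0.0014 and 0.010. The part of signal strength in the brain differences was not tested.

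**Figure D4:**
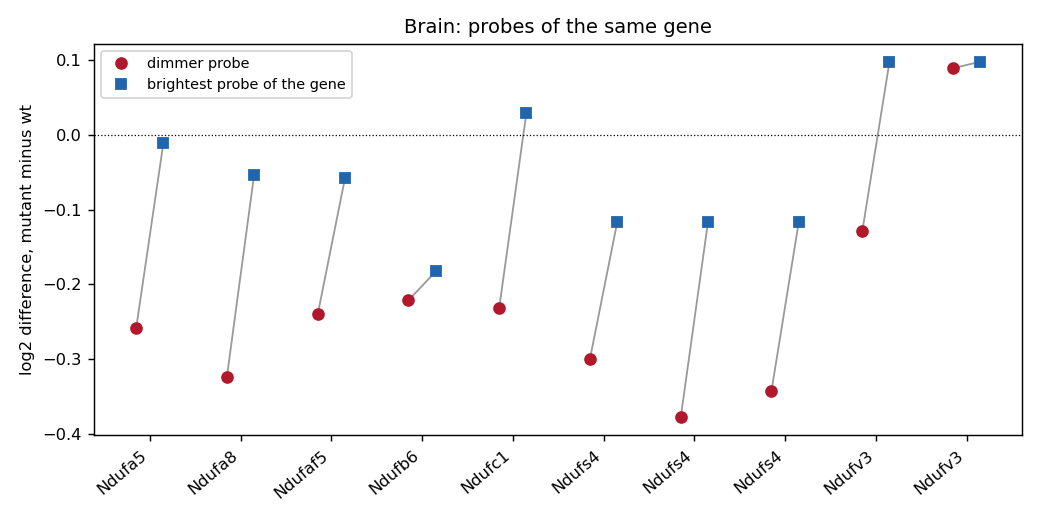
Log2 difference in brain, mutant minus wt, of each dimmer probe (red dots) beside the brightest probe of the same gene (blue squares), joined by a line; Ndufs4 has 3 dimmer probes and Ndufv3 has 2. In all 10 pairs the dimmer probe is the more negative.

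Other mitochondrial genes lay on the same side in brain. Probes for complexes II and III and ATP synthase were below wt in 23 of 28 (median -0.091, 8 with unadjusted p under 0.05). Mitochondrial ribosomal protein probes were below wt in 59 of 93 (median -0.037, 8 lower and 1 higher at an unadjusted p under 0.05). Of all brain probes, 49.5% were below wt, and 4.53% were lower and 2.49% higher at that p. Of 8 probes for general mitochondrial content, such as Cs, Vdac1 and Tfam, 6 were below wt and 0 had an unadjusted p under 0.05. The difference between complex I and these groups was not tested.

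The levels of region markers varied among the brains, and single wt mice set the low ends of the wt ranges. These were wt 1 for the hypothalamic and pituitary genes (4.42) and wt 6 for the cerebellar genes (5.47). All 6 hypothalamic and pituitary probes tested had a higher mean in mutant than in wt brains (median 0.485). Of these, 1 had an unadjusted p under 0.05, against 2.49% of all probes higher. The largest difference, 2.18, was also the most positive of all brain probes. The 2 cerebellar probes tested were higher in mutants too (median 0.54). The level of 7 hypothalamic and pituitary genes was 5.87 to 7.72 in mutant brains and 4.42 to 7.50 in wt brains, and that of 4 cerebellar genes 7.15 to 7.70 in mutant and 5.47 to 7.84 in wt brains. With both levels as covariates the median complex I difference was -0.108 and 5 of 48 probes were lower at an unadjusted p under 0.05, against 2.88% of all probes in that fit. Without the 3 brains standing apart the median was -0.12 with 9 such probes (6.18% of all probes).

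In the 3 mutant and 3 wt brains with Eif2s3y above background the median was -0.145, with 4 of 48 probes lower at an unadjusted p under 0.05 (3.54% of all probes). In the 3 mutant and 3 wt brains without it the median was -0.079 with 2 of 48 such probes (4.5% of all probes), a count at the background. Without mutant 6 the count was 6 (3.53% of all probes). Under median scaling, all probes shifted by -0.205 and the complex I probes by -0.332.

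In muscle, complex I transcripts were split evenly between genotypes. Of 50 probes, 25 were below wt and 25 above, with a median log2 difference of -0.0016 against 0.0081 for all 11706 probes. None had a limma adjusted p under 0.05 (the lowest was 0.99994), where 0.179% of all muscle probes did. At an unadjusted p under 0.05, 0 probes were lower and 2 higher, against 3.02% of all probes in either direction. All mutants lay below all wt mice at 2 probes and above them at 1, against 1.09% and 1.06% of all muscle probes.

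The 2 muscle probes with the lowest p belonged to Ndufs4 and to Ndufb10, a distal arm subunit with disulphide bonds. Ndufs4 probe ILMN_2900025 had levels of 11.07, 10.92, 10.93 and 11.45 in mutant muscles, against 10.81, 10.82, 10.71 and 10.61 in wt muscles. Every mutant lay above every wt mouse. The difference was 0.36 (SE 0.14, unadjusted p = 0.0245, limma adjusted p = 0.99994).

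The other Ndufs4 probes did not share it. ILMN_1234521, the brightest, had 12.38, 12.37, 12.35 and 12.36 in mutant muscles, against 12.42, 12.44, 12.41 and 12.40 in wt muscles, a separation in the other direction of only -0.052. ILMN_2663694 differed by -0.097, and ILMN_2640944 averaged 11.02 in mutants and 11.02 in wt mice.

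Ndufb10 had levels of 9.55, 8.73, 9.26 and 9.73 in mutant muscles, against 9.25, 8.08, 8.66 and 8.83 in wt muscles. Mutant 2 lay below wt 1 and wt 4, and the other 3 mutants lay above every wt mouse. The difference was 0.61 (SE 0.26, unadjusted p = 0.0399, limma adjusted p = 0.99994). Ndufb9 and Ndufb5 of the same arm had mean differences of 0.31 and 0.24 with overlapping groups, and Ndufb4 of 0.13. Each depended on single mice: Ndufb9 was 0.17 without wt 2, Ndufb5 was 0.058 without mutant 3, 0.384 without mutant 4, 0.385 without wt 1 and 0.154 without wt 3, and Ndufb4 ran from 0.071 (without wt 2) to 0.30 (without mutant 2), moving by over 1.5 times without any 1 mouse other than wt 3 or wt 4.

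The assembly factors were the only class of several probes with 1 direction in muscle. All 6 probes were below wt, with a median of -0.11, and none had an unadjusted p under 0.05. Other assembly factors, such as Acad9 and Ecsit, lay the other way, with 7 of 20 probes below wt, a median of 0.029, and 1 higher and 0 lower at an unadjusted p under 0.05. Ndufaf4 had 9.47, 9.44, 9.44 and 9.43 in mutant muscles, against 9.58, 9.77, 9.61 and 9.61 in wt muscles. The groups did not overlap; the difference was -0.20 (SE 0.099, unadjusted p = 0.072, limma adjusted p = 0.99994). Ndufaf5 gave -0.33 and -0.12, Ndufaf3 -0.100, Ndufaf1 -0.075 and Ndufaf7 -0.061. The shared direction did not hold without mutant 4 or without wt 1. Without mutant 4 the Ndufaf5 probes gave 0.0021 and 0.0073 and Ndufaf7 0.0079, and without wt 1 Ndufaf1 gave 0.011.

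Among the core subunits of the matrix arm the muscle differences were small. Ndufv1 differed by -0.0033, Ndufv2 by 0.017, Ndufs3 by 0.014, Ndufs7 by -0.023 and Ndufs8 by 0.021. Their 95% intervals ran from -0.41 to 0.41 at Ndufv1, the widest, and from -0.23 to 0.19 at Ndufs7, the narrowest, so differences within those ranges were not resolved by 4 mice a group. The sign of each of the 5 turned under at least 1 alternative; Ndufv1, for example, was 0.15 without mutant 4. Complexes II and III and ATP synthase had 8 of 28 probes below wt in muscle (median 0.035) and mitochondrial ribosomal proteins 47 of 97 (median 0.0078). The level of slow-fibre genes ranged over 8.40 to 9.89 in mutant and 6.71 to 10.32 in wt muscles, and the acinar genes differed as given above. Their part in these values was not tested. Without wt 2, the muscle that stood apart, 0 complex I probes were called.

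The genotype difference in muscle minus that in brain was tested over 10107 probes measured in both tissues. None of 48 complex I probes had a limma adjusted p under 0.05, against 0.0495% of all probes. At an unadjusted p under 0.05, 7 were more positive in muscle and 0 more negative, against 3.06% of all probes more positive. The median was 0.079 (all probes 0.011), and that of the distal arm 0.22, with 10 of 11 above 0. Ndufs4 probe ILMN_2900025 had the lowest p, with 0.73 (SE 0.17, unadjusted p = 3.8e-04, limma adjusted p = 0.356). Ndufb10 gave 0.66, Ndufb5 0.59, Ndufc1 ILMN_2983247 0.38, Ndufs3 0.32, Ndufa6 0.32 and Ndufa8 ILMN_2682019 0.30, each with a limma adjusted p of 0.995.

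The clear contrast for complex I was between tissues. On values normalized together, all 48 probes had a higher mean in wt muscle than in wt brain. By limma, 44 were higher at an adjusted p under 0.05 (43.1% of all 10107 probes were) and 0 lower (30.8% were). At 43 probes every wt muscle lay above every wt brain, against 34.0% of all probes. The median log2 difference was 1.18 over complex I and 0.165 over all probes. In mutant mice the median was 1.26, with 46 probes higher at an adjusted p under 0.05.

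The distal membrane arm had the largest class median, with 11 of 11 probes higher in muscle and a value of 2.08. It was also dim in brain: 9 of its 11 probes lay in the dimmer part of the complex I probes by wt brain level (10.23 or below), against 5 of 14 in the N module and 2 of 10 in the proximal arm. The 24 dimmer complex I probes had a median tissue difference of 1.93 and the 24 brighter ones of 0.897. All probes on the same sides of that level had medians of 0.203 and -1. The wt brain level enters both this split and the difference, so larger differences at dim probes are partly built in. In 9 of 10 comparisons within a gene the dimmer probe gave the larger tissue difference (median of dimmer minus brightest 0.58, and 0.19 over all 2210 such comparisons). The part of signal strength in the order of the classes was not tested.

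Ndufb2 had 8.78, 8.74, 9.04 and 8.79 in wt muscles, against 5.40, 5.72 and 6.09 (lowest, median and highest) in wt brains. The lowest muscle lay well above the highest brain. The difference was 3.08 (SE 0.17, limma adjusted p = 4.5e-13).

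Ndufb5 had 10.38, 9.74, 9.72 and 9.96 in wt muscles, against 6.62, 6.98 and 7.11 in wt brains. Ndufb10 had 9.10, 8.02, 8.57 and 8.73 in wt muscles, against 5.41, 5.65 and 5.97 in wt brains. Both separated the tissues fully, with differences of 3.03 (SE 0.17) and 2.96 (SE 0.20). Ndufb9 was higher in muscle by 2.68, Ndufb7 and Ndufb3 by 2.08 each, and Ndufb4 by 1.88. Ndufb8 was higher by 0.65, the smallest difference of the arm.

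The other parts of the enzyme had smaller medians. The N module had a median of 0.99, the Q module of 1.17 and the proximal arm of 0.98. Among the catalytic subunits, Ndufs3 was higher in muscle by 1.75, Ndufs7 by 1.19, Ndufv2 by 0.85, Ndufs8 by 0.66 and Ndufv1 by 0.48. The 4 Ndufs4 probes gave 1.45 to 2.51. Ndufa13 did not pass: it had 12.91, 12.63, 12.89 and 12.95 in wt muscles, against 12.49, 12.63 and 12.83 in wt brains, a difference of 0.18 (limma adjusted p = 0.084).

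The assembly factors divided. Ndufaf5 (2.29 and 1.67), Ndufaf1 (2.26) and Ndufaf4 (2.05) were higher in muscle. Ndufaf7 (0.36, limma adjusted p = 0.051) and Ndufaf3 (0.19, limma adjusted p = 0.121) did not pass. Ndufaf3 had 5.49, 5.16, 5.34 and 5.34 in wt muscles, against 4.94, 5.10 and 5.47 in wt brains, with overlap. 1 Ndufv3 probe (ILMN_2688822, 0.10) also did not pass, while the other 2 gave 1.00 and 0.78 and passed. Of 18 probes for other assembly factors, 14 were higher and 3 lower at an adjusted p under 0.05.

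**Figure D5:**
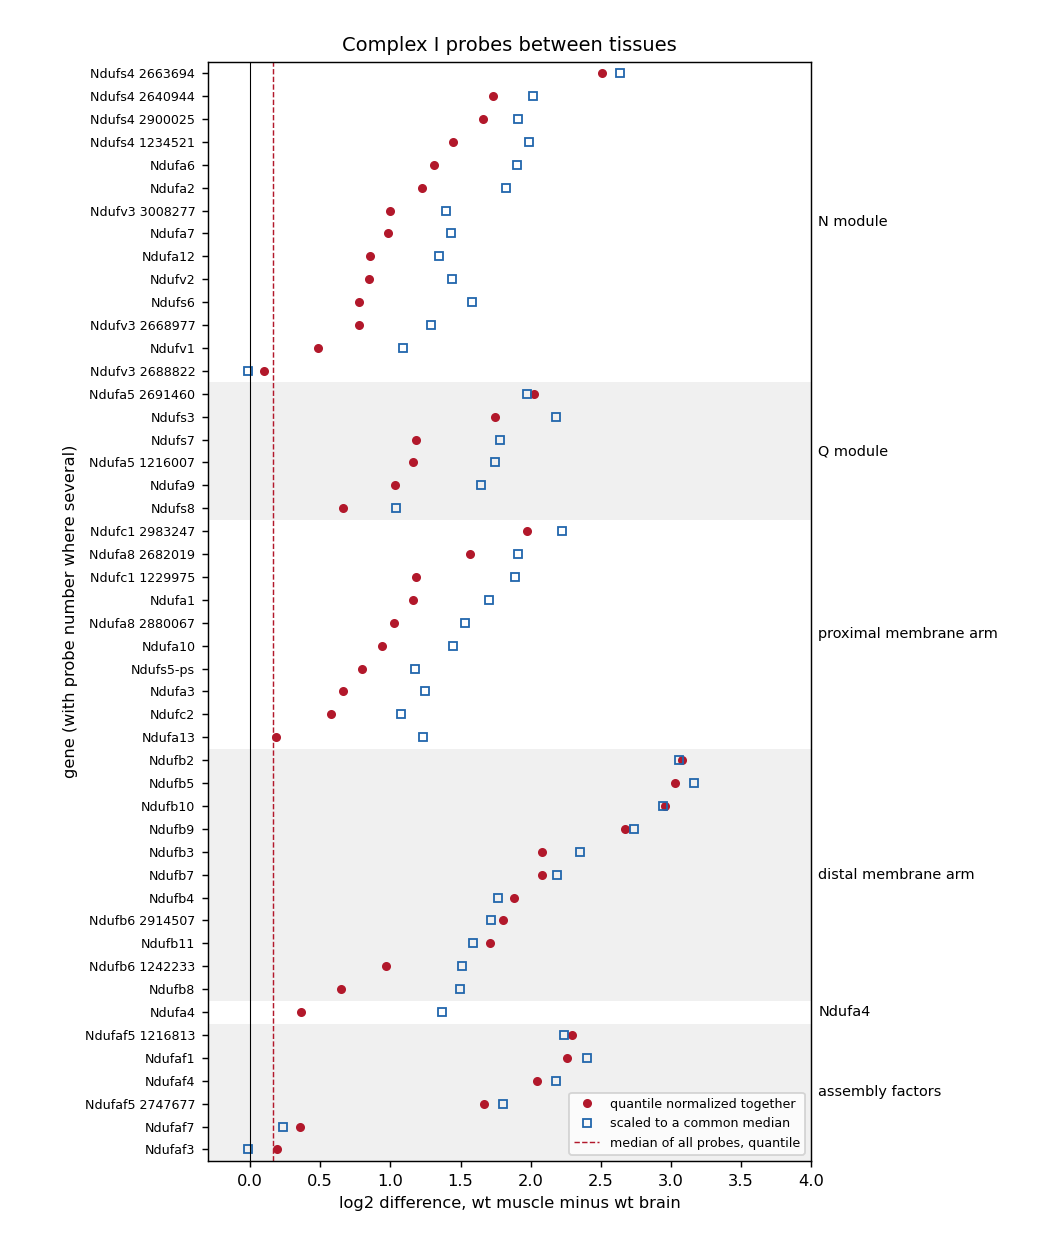
Log2 difference, wt muscle minus wt brain, of the 48 complex I probes tested in both tissues, ordered by part of the complex; red dots are values quantile normalized together, open blue squares values scaled to a common median, and the dashed line the median of all probes (0.165). The distal arm reaches 3.08 at Ndufb2, and Ndufa13 and Ndufaf3 lie lowest in the proximal arm and the assembly factors by the quantile values.

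The size of the tissue difference depended on how the arrays were scaled. With the arrays scaled to a common median over the probes detected in both tissues, the complex I median was 1.73 (all probes 0.0947), and without normalization between arrays 1.67 (all probes 0.0289). The N module median then became 1.51 with median scaling, the proximal arm 1.49, and the distal arm 2.19. Ndufa13 differed by 1.23 (limma adjusted p = 1.6e-08) and Ndufa4 by 1.37 after median scaling, against 0.18 and 0.36 after quantile normalization. Ndufaf3 and Ndufv3 ILMN_2688822 were the members whose sign turned, to -0.015 and -0.018.

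2 further probes reached the detection minimum in muscle but not in brain. They are members only through muscle, so a higher level there was set by the filter and is not a finding. Ndufb11 probe ILMN_2747886 was detected on 4 of 4 wt muscles and 0 of 6 wt brains, with means of 4.85 and 4.38. Its muscle mean was 1.22-fold the lowest detected level on the wt brain arrays (4.56), and so lay near background. The Ndufab1 probe, for the mitochondrial acyl carrier protein, was detected on 4 of 4 wt muscles and 1 of 6 wt brains, with means of 4.96 and 4.38.

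Higher levels in muscle were shared by the other mitochondrial groups. At an adjusted p under 0.05, 27 of 28 probes for complexes II and III and ATP synthase were higher (median 0.97). So were 86 of 93 for mitochondrial ribosomal proteins (median 1.02) and 8 of 8 for mitochondrial content, which read 6 genes. Of all probes, 43.1% were higher at that adjusted p. The difference between complex I and these groups was not tested.

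Because the members were higher in muscle almost without exception, their promoters were searched for motifs of 4 factors known for respiratory genes. Windows of 250 bases before to 50 after the start came from RefSeq (GRCm38.p6), and 36 of 39 genes matched, with 38 windows. The letters AAGATGGC, a YY1 motif, on either strand stood in 7 of 38 windows (18.4%), against 2.75% of all 32851 windows. GCGCATGC, an NRF-1 motif, stood in 4 (10.5%, against 2.71%), CCGGAAG, a GABP motif, in 5 (13.2%, against 8.86%), and AAGGTCA, an ERR motif, in 2 (5.26%, against 4.72%). A match describes letters and shows no binding, and the absence of a match says nothing of the factor.

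The 7 stretches with the YY1 letters are shown because all lie just after the start on the gene's own strand, where the first matching base stands 22 to 38 bases after it. The letters contain ATG, and whether the coding start of each gene lies there was not tested. Capitals mark the motif.
Ndufa3 (chr7:3617384-3617413, + strand): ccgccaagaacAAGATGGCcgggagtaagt
Ndufa9 (chr6:126849097-126849126, - strand): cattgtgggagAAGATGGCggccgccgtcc
Ndufb8 (chr19:44555393-44555422, - strand): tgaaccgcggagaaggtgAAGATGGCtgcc
Ndufc1 (chr3:51408915-51408944, - strand): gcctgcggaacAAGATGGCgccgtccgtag
Ndufs4 (chr13:114388045-114388074, - strand): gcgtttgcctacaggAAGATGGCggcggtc
Ndufs6 (chr13:73328433-73328462, - strand): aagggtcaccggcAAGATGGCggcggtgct
Ndufs7 (chr10:80249462-80249491, + strand): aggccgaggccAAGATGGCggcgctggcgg

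For each of the 4 genes with the NRF-1 letters, 1 stretch is shown. Capitals mark GCGCATGC or its reverse complement GCATGCGC, which overlap in Ndufaf4 and Ndufaf5. Ndufaf4 holds a further GCGCATGC at its start, which is not shown.
Ndufa6 (chr15:82354356-82354385, - strand): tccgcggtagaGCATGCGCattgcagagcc
Ndufa8 (chr2:36049328-36049357, - strand): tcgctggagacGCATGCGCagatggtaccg
Ndufaf4 (chr4:24897959-24897988, + strand): cccagatgtctGCGCATGCGCctgtgcgga
Ndufaf5 (chr2:140170651-140170680, + strand): tagtcccgttgGCGCATGCGCctaatagaa
In muscle minus brain these 4 genes gave 1.31 (Ndufa6), 1.57 and 1.03 (Ndufa8), 2.05 (Ndufaf4) and 2.29 and 1.67 (Ndufaf5). The median of all 48 complex I probes was 1.18. A link between the letters and the levels was not tested.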

How the data were processed

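Illumina mouse bead arrays of 20 samples were used (4 mutant and 4 wt muscles, 6 mutant and 6 wt brains). Per the labels' protocols, Trizol RNA was cleaned on RNeasy columns and labelled with biotin by the MessageAmp kit. The submitters' processing notes list GenomeStudio 2011.1. The deposited table holds intensity values, neither normalized nor background-subtracted, each with a detection p-value deposited beside it. A further deposited table of processed intensity values, whose steps are not given in the sources used here, served as an alternative.

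Intensities were background-corrected (normexp with controls inferred from the detection p-values, offset 16), quantile normalized and put on the log2 scale with limma 3.58.1 in R 4.3.3, per tissue for genotype and jointly for tissue. The offset shrinks differences of dim probes. Tests were limma's lmFit and eBayes, adjusted by the Benjamini-Hochberg method over 11706 muscle, 12423 brain or 10107 shared probes. They were also run on simulated data, with shifts larger than any complex I genotype difference reported here. Those runs say nothing of how well small differences are found. The interaction used all 20 arrays. Counts and medians are over probes unless genes are named. Where a gene has several probes, its brightest stands for it in counts of genes and in the choice of genes by p or tissue difference. Other probes are given for some of the genes where they differ.

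In the platform annotation 23978 probes have 1 gene symbol, 0 have several and 1719 have none; all 50 member symbols were unchanged by gene ID in RefSeq GRCm38.p6. Members, classes and lists were chosen with earlier results of these data known. Genes named are those of lowest p (8 per tissue), the largest tissue differences (6 per direction), members seen in 1 tissue only, and others to describe each class. Same-numbered mice are not described as related, so the replicate number was used as a block only as an alternative. The highest correlation between 2 arrays was 0.995, with 0 identical pairs. The number of arrays limits the precision. Alternatives covered background, offset, scaling, filter, weights, covariates, block and leaving out arrays; those by Eif2s3y detection, without normalization between arrays and with median scaling over all probes were added after seeing the data.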

Additional observations from a re-analysis of the deposited data

Results flagged for a closer look

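4 samples stood far from the rest of their group at a named probe, among 46 groups of values examined; chance alone marks about 1 in 20. At Ndufaf4 muscle wt 2 had 9.77, where the nearest wt mouse had 9.61. At Ndufa7, an accessory subunit of the N module, muscle mutant 4 had 11.9 and the other 3 mutants lay close to 11.6. At Ndufb4 muscle mutant 2 had 6.49, below the nearest mutant at 7.15. At Ndufb5 brain mutant 5 had 6.18, below the nearest mutant at 6.60, and without that mouse the Ndufb5 difference was -0.269.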

How the results depend on the processing

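No complex I probe was called between genotypes in muscle, brain or their difference under any alternative run, the replicate block included (median in brain with the replicate block -0.11). Same-numbered mutant and wt mice correlated in their deviations at -0.252 to 0.106 in muscle (above 0.1 in 1 of 4 pairs) and -0.070 to 0.621 in brain (4 of 6 pairs), and no mouse correlated best with its own number. Small differences often changed sign: 27 of 50 probes in muscle, 18 of 48 in brain, 14 of 48 in the difference between tissues and 2 of 48 for tissue did so under at least 1 alternative. Of the 8 muscle genes of lowest p, 1 reversed: Ndufaf5 ILMN_2747677 ran from -0.236 to 0.00731 leaving out 1 array, the last without mutant 4. In brain the median stayed between -0.062 and -0.145 except under median scaling (-0.332). The count of probes lower at an unadjusted p under 0.05 was 5 with region markers as covariates, 4 and 2 in mice with and without Eif2s3y, and 6 to 11 leaving out 1 array. The median for tissue was 1.73 with median scaling over shared probes, 1.75 over all probes, 1.67 without normalization, 1.04 without background correction and 1.26 in mutant mice, and 44 to 46 probes were called higher throughout. Ndufaf3 reversed, to -0.0147 with median scaling over shared probes and -0.0805 without normalization between arrays. The cause of these changes was not tested. Small differences of dim probes, such as the Ndufb11, Ndufab1 and Ndufaf3 probes near background, are limited by signal.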
